A study of Homo sapiens with 4 samples.

Results

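The genes described here are zinc transporters and metallothioneins of the human genome, with the 2 factors named for the metal response. The set was chosen with earlier results of these data known. Its members were taken by symbol: 10 zinc exporters of the SLC30A family, 14 zinc importers of the SLC39A family, 11 metallothioneins (MT1 followed by a letter, MT2A and MT3), MTF1 and MTF2. Together they are 37 of the 61267 genes counted. Their mRNA was read by stranded mRNA sequencing. The cells were SU-DHL-2, a long-established line from a human diffuse large B-cell lymphoma, labelled wild type with lymph node as tissue. Libraries of 2 kinds were compared: cells given 10 µM Spautin-1 for 36 h (n = 2) and cells given solvent (vehicle, n = 2), for which the labels give no time. Spautin-1 is known as a blocker of the deubiquitinases USP10 and USP13. All 4 libraries come from the same line, with no other genotype. Nothing in the labels gives the replicates as separate cultures, so the p-values rest on a spread between libraries that may be technical.

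Zinc is held at a very low free level in the cytosol. SLC39A proteins bring it into the cytosol from outside or from organelles, SLC30A proteins move it out of the cytosol into organelles or out of the cell, and metallothioneins, small proteins rich in cysteine, bind what is left, along with copper and cadmium. When free zinc rises, the zinc-finger protein MTF1 binds metal response elements before the metallothionein genes and before SLC30A1, the exporter of the cell surface, and increases their transcription. Metallothionein genes also respond to glucocorticoids, cytokines and oxidants. MTF2 shares the name but is a subunit of Polycomb repressive complex 2, which methylates histone H3.

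Libraries held between 34115420 and 38362526 counted reads. Low counts were mostly even: in each library between 2519 and 2748 genes had 2 reads and only 676 to 758 had 1 read, so reads that arrive in pairs may each have been counted, and a count is not an independent molecule. Of 18368 genes tested across the whole table, 22.0% passed the edgeR quasi-likelihood test at a Benjamini-Hochberg adjusted p under 0.05, 11.5% higher and 10.5% lower in Spautin-1. With 2 libraries a group the smallest two-sided p of an exact permutation test is 0.333, so none is given for single genes. Of 10 B-cell markers all were detected and tested, and 6 of them, among them MS4A1 and CD22, were called higher in Spautin-1; their summed level was 1286 and 1266 CPM (counts scaled to library depth) in Spautin-1 libraries, against 912 and 830 CPM in vehicle libraries. Of 3 plasma cell markers, PRDM1 and XBP1 were called higher. Of the marker lists of other cells, T cells (0 of 5 genes tested), NK cells (1 of 3), myeloid cells (1 of 6), fibroblasts (1 of 3) and endothelial cells (1 of 3) summed to at most 1.32 CPM in any library, with GNLY, KLRD1 and CDH5 at 0 reads in every library. The 2 erythroid genes summed to between 6.79 and 9.70 CPM, and the epithelial list to between 47.6 and 57.2 CPM, nearly all of it EPCAM; no gene of these lists was called. The part of these markers in the results below was not tested.

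Of the 37 genes, 25 passed the filter on low counts and were tested. Among them 6 rose in Spautin-1 and none fell by edgeR, which is 24.0% called and close to the 22.0% of all genes. The calls were unevenly placed: 5 of 5 metallothioneins tested rose, 1 of 11 importers rose, and 0 of 7 exporters and neither of the 2 factors were called. Without adjustment, 7 members were higher and 2 lower at a p under 0.05. By DESeq2 4 members were called higher and none lower, and by limma-voom 4 and none. The median log2 fold change was 2.61 for the metallothioneins tested, -0.08 for importers and 0.02 for exporters, beside -0.01 for all genes tested. MT1E and MT1F reached the filter through the Spautin-1 libraries alone, so for these 2 genes a higher value was a condition of being tested, and the 2.61 is the value of MT1F itself. Of the 3 metallothioneins that reached the minimum in both groups, MT2A, MT1X and MT1G, all 3 rose, with a median of 1.66.

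**Figure D1:**
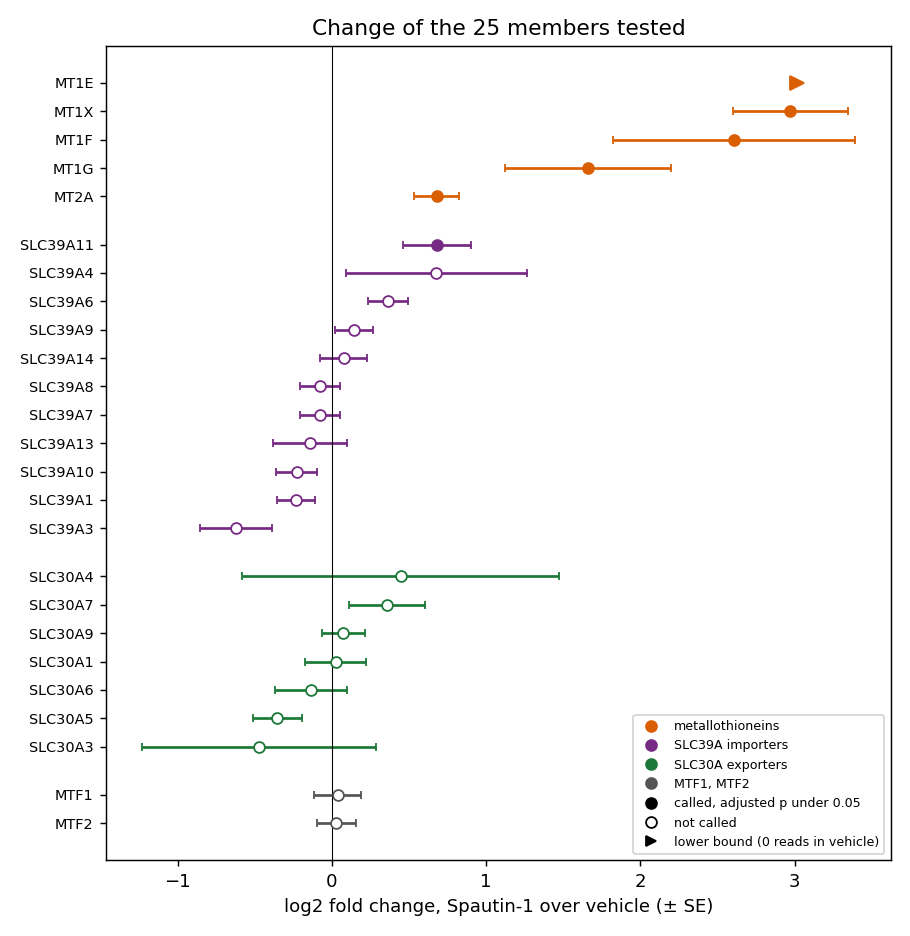
Log2 fold change of Spautin-1 over vehicle for the 25 genes tested, with bars for the SE from edgeR, grouped by family; filled points are called at an adjusted p under 0.05, open points are not, and the triangle is the lower bound for MT1E. All 5 metallothioneins lie at or above 0.68, while 10 of 11 importers, all 7 exporters, MTF1 and MTF2 are open points between -0.62 and 0.68. MT1E and MT1F reached the filter through the Spautin-1 libraries alone, and the other 3 metallothioneins reached it in both groups.

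The 11 metallothionein genes lie in a cluster of 95.1 kb on chromosome 16 (56589074 to 56684196, GRCh38). MT2A, the main metallothionein expressed in most tissues (56608584 to 56609497, plus strand), held nearly all the reads of the family. It stood at 108 and 112 CPM in Spautin-1 libraries, against 57.0 and 79.7 CPM in vehicle libraries. Both Spautin-1 libraries lay above both vehicle libraries, a separation that 30.8% of all genes tested showed. The spread was wider among vehicle libraries (SD 16.0 CPM) than among Spautin-1 libraries (SD 2.79 CPM). Replicates also differed more in vehicle over many genes. The chi-square between replicates per degree of freedom was 31.75 in vehicle (15420 genes) and 9.13 in Spautin-1 (15257 genes). The rise of MT2A was 1.60-fold (log2 fold change 0.68 ± 0.15, ± SE, edgeR adjusted p = 0.00622). It kept its call whichever library was left out, at log2 fold changes between 0.46 and 0.94.

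The MT1 genes, which encode close relatives of MT2A, were near silent in vehicle and are given as reads. MT1X (56682470 to 56684196, plus strand) had 114 and 126 reads in Spautin-1 libraries, against 14 and 17 reads in vehicle libraries. This was a 7.85-fold rise in CPM, from a log2 fold change of 2.97 ± 0.37 (edgeR adjusted p = 0.000223), and the groups were far apart. MT1E (56625475 to 56627112, plus strand) had 26 and 22 reads in Spautin-1 libraries and 0 reads in both vehicle libraries. Set against a floor of 3 counts per vehicle library, MT1E was at least 8.10-fold higher in Spautin-1. The edgeR adjusted p of 0.00288 belongs to the fitted fold change and not to this bound. MT1E reached the filter through the Spautin-1 libraries alone, so a higher value there was a condition of its test. If each fragment was counted as 2 reads, the floor would be 6 counts and the bound 4.05-fold. MT1E was thus detected in Spautin-1 libraries alone, at a level that MT1X exceeded.

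MT1G (56666730 to 56668065, minus strand) had 55 and 33 reads in Spautin-1 libraries, against 12 and 16 reads in vehicle libraries, a 3.16-fold rise (log2 fold change 1.66 ± 0.54; edgeR adjusted p = 0.0442). Its call was lost whichever library was left out (adjusted p between 0.0524 and 0.343) and by DESeq2 (0.0634) and limma-voom (0.0586). MT1F (56657731 to 56660698, plus strand) had 16 and 44 reads in Spautin-1 libraries, against 4 and 6 reads in vehicle libraries, a 6.09-fold rise (log2 fold change 2.61 ± 0.78; edgeR adjusted p = 0.0325). The Spautin-1 libraries differed from each other for MT1F, and without Spautin-1 replicate 2 its log2 fold change was 1.64 (adjusted p = 0.497); without vehicle replicate 1 (0.0556) and by limma-voom (0.0841) it also missed the threshold. The calls of MT2A and MT1X held in all 17 alternatives in which they were refitted. So did that of MT1E in 16, but a gene that passed the filter through Spautin-1 alone had to be high there to be tested at all.

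The other 6 metallothioneins were under the filter. MT1H had 10 and 6 reads in Spautin-1 libraries, against 4 and 2 reads in vehicle libraries, which do not overlap; in a fit without a filter its log2 fold change was 1.37 ± 1.46 (edgeR adjusted p = 0.679). MT1L had 0 reads in both Spautin-1 libraries and 0 and 6 reads in vehicle libraries. MT1A, MT1B, MT1M and MT3, the form known from brain, had no read in any library, which allows up to 3 counts, or 0.0776 to 0.0866 CPM depending on the library (counting error only, and higher if each fragment was counted as 2 reads). All 7 metallothionein genes with reads are shown in the plot of reads per library.

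**Figure D2:**
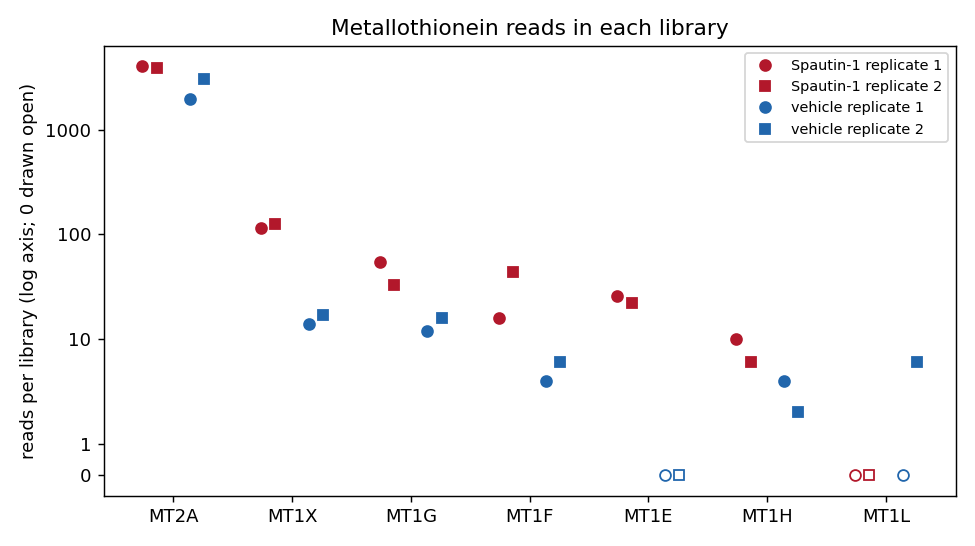
Reads per library (log axis, with 0 drawn as open symbols at the bottom) for the 7 metallothionein genes with any read, Spautin-1 libraries left of vehicle libraries for each gene, circles for replicate 1 and squares for replicate 2. For MT2A, MT1X, MT1G, MT1F, MT1E and MT1H both Spautin-1 libraries lie above both vehicle libraries. By CPM, 30.8% of all genes tested showed this separation. MT1E and MT1F reached the filter through the Spautin-1 libraries alone, and MT1H was under it. MT1L has 6 reads in vehicle replicate 2 and none elsewhere.

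Summed over the family, metallothionein reads came to 113 and 118 CPM in Spautin-1 libraries, against 58.0 and 80.9 CPM in vehicle libraries, a ratio of means of 1.67. The 9 MT1 genes alone summed to 5.89 and 6.67 CPM in Spautin-1 libraries, against 0.979 and 1.22 CPM in vehicle libraries, a ratio of 5.72. With CPM taken per kilobase of exonic length, the sums were 4.97 and 4.90 in Spautin-1 libraries, against 0.915 and 1.80 in vehicle libraries. That ratio was 3.64, but 0.835 of the 1.80 in vehicle replicate 2 came from MT1L, on 6 reads over 186 exonic bases. MT2A took a smaller share of the family's reads in Spautin-1, 94.8% and 94.4%, against 98.3% and 98.5% in vehicle. These sums are descriptions, with no test.

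MT1 genes are near-identical in places, and reads could be split between them or dropped by the counting. In GENCODE 29 transcripts, the share of 50-base windows of the longest coding transcript that also occur in a transcript of another gene was 4.9% for MT2A, 3.6% for MT1F, 10.6% for MT1E and 14.3% for MT1G, and 0.0% for these genes with 100-base windows. Some 50-base windows of MT2A, MT1F and MT1G occurred in transcripts of MT1X, among others. For the longest coding transcript of MT1X the share was 55.8%, all of it with AC026461.1, listed here as ENSG00000259827. This overlapping gene on the same strand covers 18.6% of the exonic bases of MT1X. That gene had 92 and 105 reads in Spautin-1 libraries, against 9 and 17 reads in vehicle libraries, so reads of MT1X may have been counted for both. MT1L lies wholly inside ENSG00000291105, and the 2 genes had the same count in every library.

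The promoters of the metallothioneins are shown because the rise of these genes is the main change in the set and their known metal response elements lie there. RefSeq promoters (GRCh38.p14) matched 27 of the 37 genes by symbol, among them MT2A, MT1X, MT1H and MT1B. The 250 bases before each start were searched on both strands for the core of the metal response element in its 2 forms, TGCGCNC and TGCACNC. Of all 35116 promoters listed, 24.8% held at least 1 such core and 0.98% held 3 or more. The cores found are in capitals below; those on the opposite strand read in reverse complement, and no cores overlapped. MT2A (chr16:56608334-56608583, plus strand) held 7, MT1X (chr16:56682220-56682469, plus strand) held 4, and SLC30A1 (chr1:211579162-211579411, minus strand), the exporter that MTF1 is known to control, held 1.
MT2A: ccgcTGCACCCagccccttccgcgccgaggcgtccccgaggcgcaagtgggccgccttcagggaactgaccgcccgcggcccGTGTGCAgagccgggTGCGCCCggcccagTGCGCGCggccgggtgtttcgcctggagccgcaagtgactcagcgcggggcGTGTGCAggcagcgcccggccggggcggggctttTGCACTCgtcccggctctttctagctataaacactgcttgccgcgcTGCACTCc
MT1X: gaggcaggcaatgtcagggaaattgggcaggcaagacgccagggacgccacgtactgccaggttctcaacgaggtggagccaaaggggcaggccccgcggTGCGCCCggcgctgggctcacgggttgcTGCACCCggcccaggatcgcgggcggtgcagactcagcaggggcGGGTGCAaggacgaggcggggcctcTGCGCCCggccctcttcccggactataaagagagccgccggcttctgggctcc
SLC30A1: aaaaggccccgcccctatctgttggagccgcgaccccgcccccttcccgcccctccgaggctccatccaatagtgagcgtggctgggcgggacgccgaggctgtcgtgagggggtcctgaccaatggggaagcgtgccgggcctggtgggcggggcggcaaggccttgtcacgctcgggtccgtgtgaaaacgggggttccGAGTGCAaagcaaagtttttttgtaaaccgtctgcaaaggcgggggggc
MT1H held 8 cores and MT1B, with no read in any library, held 3, so all 4 metallothionein promoters searched held 3 or more. No promoter was listed for MT1E, MT1F, MT1G, MT1A, MT1M, MT1L or MT3, so these were not searched. Whether cores go with the rise was not tested. The promoter of SLC39A11 held none. Over the families, 6 of 11 exporter promoters and 5 of 19 importer promoters held at least 1 core, some genes having several starts. A match is a description of the letters and not a measured binding site.

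**Figure D3:**
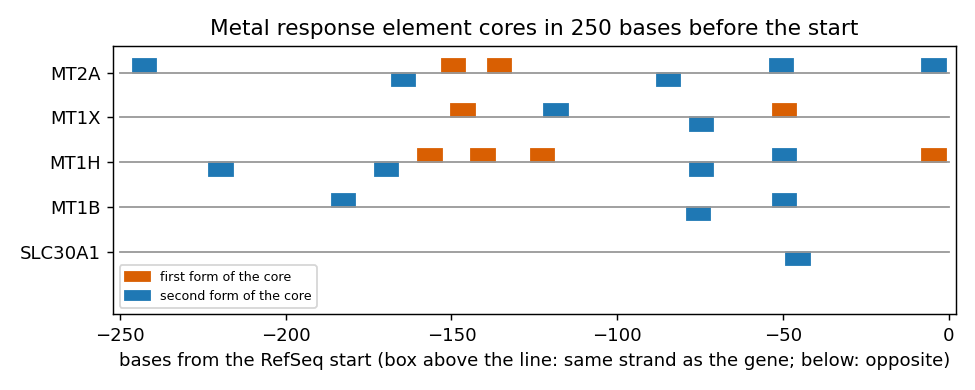
Positions of metal response element cores in the 250 bases before the RefSeq start of 5 genes, in bases from the start, with TGCGCNC as the first form and TGCACNC as the second; boxes above a line are on the strand of the gene, boxes below it on the opposite strand. MT2A holds 7, MT1X 4, MT1H 8, MT1B 3 and SLC30A1 1.

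MTF1, the zinc sensor itself (chromosome 1, 37809574 to 37859592), did not pass the test. It stood at 16.8 and 15.2 CPM in Spautin-1 libraries, against 16.3 and 14.9 CPM in vehicle libraries (log2 fold change 0.04 ± 0.15; edgeR adjusted p = 0.894). MTF2 (chromosome 1, 93079235 to 93139079) had 44.4 and 48.5 CPM in Spautin-1 libraries, against 48.2 and 42.9 CPM in vehicle libraries (0.03 ± 0.13; edgeR adjusted p = 0.898). For both genes the groups overlapped, and the sign of these small values turned under library size scaling and with the length and GC offsets.

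The exporters gave no call in either direction by edgeR. At an unadjusted p under 0.05, 0 were higher and 1 was lower; DESeq2 and limma-voom called 0. SLC30A1 (chromosome 1, 211571568 to 211579161) had 314 and 254 reads in Spautin-1 libraries, against 296 and 268 in vehicle libraries. In CPM these were 8.37 and 7.33 in Spautin-1 and 8.52 and 6.94 in vehicle, which overlap, and the log2 fold change was 0.02 ± 0.20 (edgeR adjusted p = 0.95). The mRNA of this MTF1 target was thus not called in the libraries in which metallothionein mRNAs rose; the difference between the genes was not tested.

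Per kilobase of exon, SLC30A9, linked to zinc export from mitochondria, and SLC30A5, which works in the early secretory pathway, were the exporters with the highest levels. SLC30A9 stood at 32.0 and 27.2 CPM in Spautin-1 libraries, against 29.02 and 27.2 CPM in vehicle libraries (log2 fold change 0.08 ± 0.14; edgeR adjusted p = 0.748). SLC30A5 stood at 10.9 and 12.0 CPM in Spautin-1 libraries, against 14.3 and 14.9 CPM in vehicle libraries (-0.35 ± 0.16; edgeR adjusted p = 0.136). Both Spautin-1 libraries lay below both vehicle libraries for SLC30A5, a separation that 30.6% of all genes tested showed, and the gene passed with the GC offset (adjusted p = 0.0435). SLC30A6, the partner of SLC30A5 in loading secreted enzymes with zinc, gave -0.14 ± 0.23, and SLC30A7 of the Golgi gave 0.36 ± 0.24. SLC30A7 was at 3.97 and 3.98 CPM in Spautin-1 libraries, against 2.99 and 3.21 CPM in vehicle libraries, which did not overlap, but it was not called (edgeR adjusted p = 0.331).

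Exporters of vesicles were low. SLC30A4, of endosomes and lysosomes, had 38 and 17 reads in Spautin-1 libraries, against 39 and 0 reads in vehicle libraries. Its vehicle libraries thus lay on either side of the Spautin-1 libraries. The log2 fold change was 0.44 ± 1.03 (edgeR adjusted p = 0.802), but 7.80 with a call without vehicle replicate 1, where the only vehicle library left had 0 reads, and -0.57 without vehicle replicate 2. SLC30A3, known from synaptic vesicles, had 7 and 10 reads in Spautin-1 libraries, against 14 and 10 reads in vehicle libraries (-0.47 ± 0.76; edgeR adjusted p = 0.708). Under the filter were SLC30A2 with 0 and 2 reads in Spautin-1 libraries and 0 in both vehicle libraries, and SLC30A8, the exporter of insulin granules, with 0 reads in both Spautin-1 libraries and 2 and 8 in vehicle libraries. SLC30A10, known as a manganese exporter, had no read in any library.

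The importers gave 1 call. SLC39A11 (chromosome 17, 72645949 to 73092712), an intracellular member that stands apart from the rest of the family, rose 1.60-fold, with 239 and 234 reads in Spautin-1 libraries, against 157 and 142 reads in vehicle libraries. In CPM it stood at 6.37 and 6.75 in Spautin-1 and at 4.52 and 3.68 in vehicle, with no overlap (log2 fold change 0.68 ± 0.22; edgeR adjusted p = 0.0439). The call was narrow: it was lost by DESeq2 (adjusted p = 0.0642), by library size scaling (0.0546), and without Spautin-1 replicate 1 (0.128), Spautin-1 replicate 2 (0.199) or vehicle replicate 2 (0.102), while the log2 fold change stayed between 0.54 and 0.83.

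A further 2 importers were near the threshold, in opposite directions. SLC39A6, an importer of the cell surface that pairs with SLC39A10 (chromosome 18, 36108531 to 36129385), stood at 35.0 and 39.2 CPM in Spautin-1 libraries, against 29.7 and 27.9 CPM in vehicle libraries (log2 fold change 0.36 ± 0.13; edgeR adjusted p = 0.0644). SLC39A6 passed without either vehicle library (adjusted p = 0.00527 and 0.0395). SLC39A3, also of the cell surface (chromosome 19, 2732204 to 2740028), stood at 8.34 and 5.89 CPM in Spautin-1 libraries, against 8.75 and 13.1 CPM in vehicle libraries (-0.62 ± 0.24; edgeR adjusted p = 0.0784). For both genes the groups did not overlap; 30.8% of all genes tested lay wholly above and 30.6% wholly below in Spautin-1. SLC39A3 passed without a filter (0.0206), by the edgeR exact test (0.0495) and without Spautin-1 replicate 1 (0.0232) or vehicle replicate 1 (7.12e-05), and its log2 fold change ran from -0.91 to -0.30 over the libraries left out. It shares 9.4% of its exonic bases with ENSG00000267001 on the same strand, which had 151 and 79 reads in Spautin-1 libraries, against 174 and 317 in vehicle libraries. SLC39A10 itself, the partner of SLC39A6, stood at 26.4 and 25.8 CPM in Spautin-1 libraries, against 32.2 and 29.01 CPM in vehicle libraries (-0.23 ± 0.13; edgeR adjusted p = 0.251; with the GC offset 0.0395).

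Per kilobase of exon, SLC39A1 and SLC39A7 were the highest importers. SLC39A1, of the cell surface (chromosome 1, 153959099 to 153968184), stood at 12.3 and 11.3 RPKM (CPM per kilobase of exonic length) in Spautin-1 libraries, against 13.6 and 14.0 RPKM in vehicle libraries (log2 fold change -0.23 ± 0.12; edgeR adjusted p = 0.203). Another annotated gene, ENSG00000285779, covers 60.8% of its exonic bases on the same strand, so its level is uncertain. SLC39A7, which releases zinc from the endoplasmic reticulum (chromosome 6, 33200305 to 33204439), stood at 9.83 and 9.58 RPKM in Spautin-1 libraries, against 9.51 and 10.98 RPKM in vehicle libraries (-0.08 ± 0.13; edgeR adjusted p = 0.712). The groups overlapped for SLC39A7 and did not for SLC39A1.

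The remaining importers tested were not called. SLC39A9 of the Golgi gave a log2 fold change of 0.15 ± 0.12, SLC39A13 of the secretory pathway -0.14 ± 0.24, SLC39A8, which also carries manganese and cadmium, -0.08 ± 0.13, and SLC39A14, which also carries iron and manganese, 0.08 ± 0.15. SLC39A4, the intestinal importer, rested on 36 and 38 reads in Spautin-1 libraries, against 10 and 38 reads in vehicle libraries (0.68 ± 0.59; edgeR adjusted p = 0.455), and its value rested on vehicle replicate 1: it was 0.06 without that library and 1.82 without vehicle replicate 2. Under the filter, SLC39A12 had 4 and 0 reads in Spautin-1 libraries and 0 in both vehicle libraries, SLC39A5 had 0 reads in both Spautin-1 libraries and 6 and 2 in vehicle libraries, and SLC39A2 had 0 reads in both Spautin-1 libraries and 0 and 4 in vehicle libraries. The plot of transporter levels shows the order of the 18 transporters tested.

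**Figure D4:**
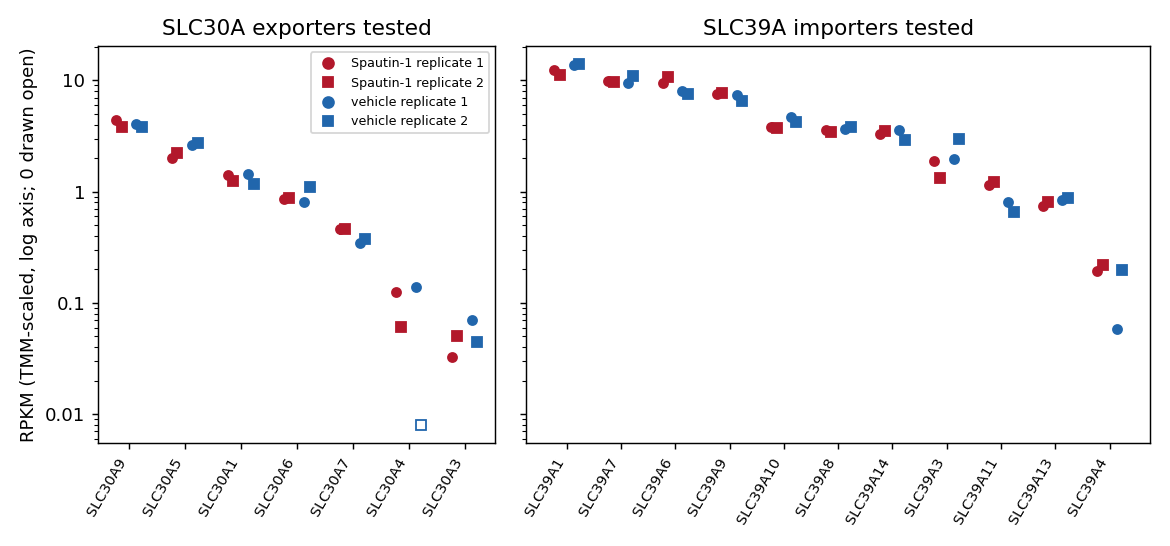
Level per kilobase of exon (RPKM on TMM-scaled libraries, log axis, with 0 drawn open at the bottom) of the 7 exporters (left panel) and 11 importers (right panel) tested, each family in order of its means, Spautin-1 libraries left of vehicle libraries for each gene. By mean, levels run from SLC39A1 at 11.3 to 14.0 RPKM down to SLC30A3 at 0.0324 to 0.0699 RPKM, and the 2 groups lie close together for most genes.

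Summed over each family, transporter mRNA in the 2 groups differed little beside metallothionein mRNA. The 14 importers came to 269 and 268 CPM in Spautin-1 libraries, against 272 and 269 CPM in vehicle libraries, a ratio of means of 0.993, and the groups overlapped. The 10 exporters came to 61.1 and 56.0 CPM in Spautin-1 libraries, against 60.8 and 58.6 CPM in vehicle libraries, a ratio of 0.981, and these overlapped too. The overlap of the importers depended on the scale: without TMM scaling they came to 264 and 266 CPM in Spautin-1 libraries, against 277 and 271 CPM in vehicle libraries, and in RPKM to 53.99 and 53.5 in Spautin-1 libraries, against 54.3 and 54.7 in vehicle libraries, neither of which overlap. As means of 2 libraries on the RPKM scale, the importers summed to 53.7 in Spautin-1 and 54.5 in vehicle. The exporters summed to 9.02 in Spautin-1 and 9.36 in vehicle, and the metallothioneins, mostly MT2A, to 125 in Spautin-1 and 76.1 in vehicle. These sums carry no test, and they weigh the most abundant members.

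**Figure D5:**
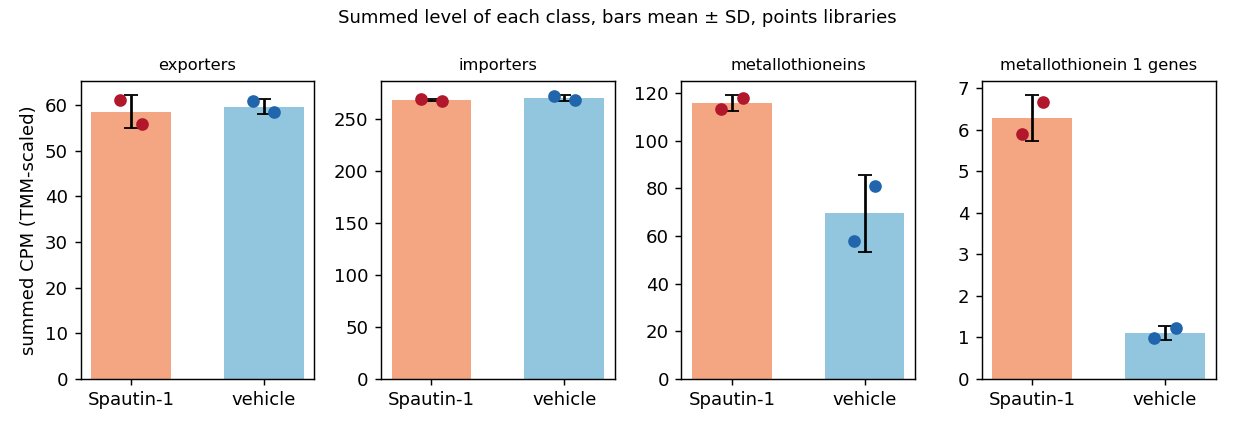
Summed TMM-scaled CPM of the 10 exporters, 14 importers, 11 metallothioneins and 9 MT1 genes; bars are means of 2 libraries with SD, points are libraries, Spautin-1 left of vehicle, and each panel has its own axis from 0. The exporters and importers are level between the groups, while both metallothionein panels are higher in Spautin-1, at 1.67 and 5.72 times the vehicle mean.

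Genes that act beside this set were read from fixed lists against the same 22.0%. Among 12 genes of the metal and oxidant response, 1 rose and 2 fell (median log2 fold change 0.14). The inducible chaperone HSPA6 rose 8.18-fold (edgeR adjusted p = 9.81e-08), while the thioredoxin reductase TXNRD1 fell by 1.15 on the log2 scale, and the selenoprotein gene SELENOH fell by 0.61. Of 22 other metal transport genes 19 were tested, and 2 rose and 1 fell (median 0.06). The copper chaperone CCS, which loads superoxide dismutase, rose 1.44-fold, the iron and manganese importer SLC11A2 rose 1.51-fold, and CNNM3, of a family tied to magnesium transport, fell by 0.62 on the log2 scale (edgeR adjusted p = 0.0369, 0.0433 and 0.031).

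Among 13 genes of Polycomb repressive complex 2, to which MTF2 belongs, 3 rose and 1 fell (30.8% called, median 0.09). The methyltransferases EZH2 and EZH1 rose 1.48-fold and 1.40-fold, PHF1, a relative of MTF2 in the same complex, rose 2.30-fold, and the histone-binding RBBP7 fell by 0.58 on the log2 scale (edgeR adjusted p between 0.000993 and 0.0308). Of 29 enzymes that take up zinc in the secretory pathway or at the cell surface, 14 were tested, and ENPP1, a phosphodiesterase of the cell surface, was the only call, rising 3.34-fold (median 0.14). It had 21.9 and 20.3 CPM in Spautin-1 libraries, against 8.29 and 4.43 CPM in vehicle libraries (edgeR adjusted p = 0.000416). Of 8 other zinc-binding or zinc-regulated proteins, 7 were tested, and the zinc-finger protein TNFAIP3 and the cysteinyl-tRNA synthetase CARS1 rose (median 0.19), TNFAIP3 by 2.90 and CARS1 by 0.29 on the log2 scale.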

How the data were processed

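Stranded mRNA libraries were prepared from TRIzol-extracted RNA, per the labels' protocols. The authors deposited 1 table of raw read counts by gene, beside exonic lengths in bases, per the file headers. Trimmomatic 0.36, featureCounts (Subread 1.5.1), edgeR 3.12.1 and build GRCh38 are named in the submitters' processing notes; no source used here gives the aligner, the strand setting or the handling of multi-mapped and multi-overlapping reads. Depths were 34115420 to 38362526 counts per library.

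The fit used edgeR 4.0.16 in R 4.3.3, with filterByExpr on the 2 groups (at least 10 reads in a library of median size, 15 in total), TMM scaling, and the quasi-likelihood F test of Spautin-1 over vehicle, two-sided. P-values were adjusted by Benjamini-Hochberg across the 18368 genes that passed the filter, and genes under 0.05 were called. CPM and RPKM values are TMM-scaled; RPKM uses the deposited exonic length, which spans all transcripts of a gene. SE is the log2 fold change divided by the square root of F. All members are accounted for; called members and the 2 highest per kilobase of each family are given by library, and of the other lists the called genes with the smallest p. Members, lists and alternatives were chosen with earlier results of these data known. Alternatives were run in edgeR, DESeq2 1.42.0 and limma 3.58.1, and the fit was tested on simulated data. Halving the counts, rounded up, the floor of 6 counts and the median over members that reached the minimum in both groups were chosen after seeing the data. GC content came from GENCODE 29 and was available for 89.8% of genes tested. Promoters are from RefSeq, GRCh38.p14. No protein sequence was used here, and 1 called gene beside the metallothionein cluster is not reported here. No label ties a replicate number to a culture or day.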

Additional observations from a re-analysis of the deposited data

How the results depend on the processing

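Of 417 refits of the 25 members under 17 alternatives, 370 kept direction and call, and 286 of these were of genes not called. Among the 98 refits of the 6 called genes, 84 kept the call, 14 lost it and none turned sign. For MT1E, with 0 reads in vehicle, the sign could not turn. These refits include MT1E, which kept its call in 16 of 16, and MT1F, which kept it in 12 of 15. Both had reached the filter through the Spautin-1 libraries alone, so their kept calls are no separate support. The count of members called higher, 6 in the report, was 3 with 1 CPM in 2 libraries, which leaves fewer metallothioneins to test, 3 at an adjusted p under 0.01, and 3 to 6 when a library was left out. The count called lower, 0 in the report, was 1 without a filter, 1 by the edgeR exact test, 2 with the GC offset, and 0 to 1 when a library was left out. With the replicate block 7 members were higher and 1 lower, SLC39A6 and SLC39A3 being added (edgeR adjusted p = 0.0446 and 0.0132). Deviations of same-numbered libraries did not correlate (r = -0.00151 over 18368 genes), so no shared effect of the number was seen. Such a correlation cannot show that the replicates are unpaired. Over all genes, 1067 to 2981 were higher and 780 to 2785 lower when a library was left out, fewest without Spautin-1 replicate 2, and 1077 and 861 at an adjusted p under 0.01. A fit with a lone library in a group assumes that it varies like the other group.

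The median of importers was -0.12 with library size scaling, -0.10 with the length offset and -0.0369 with the GC offset, and -0.12 to -0.0368 without a library. The median of exporters was -0.0914 with the GC offset and -0.14 to 0.13 without a library, so it has no fixed sign. The median of metallothioneins was 1.81 with 1 CPM in 2 libraries, which leaves MT2A and MT1X, 1.66 over the 3 that reached the minimum in both groups, a choice made after seeing the data, and 1.94 to 3.09 without a library. Values near 0 turned sign without a call: with library size scaling MTF1 (-0.00226), MTF2 (-0.00929) and SLC30A1 (-0.0157); with the length offset MTF1 (-0.038), MTF2 (-0.0015) and SLC30A1 (-0.00649); with the GC offset MTF1 (-0.0185), MTF2 (-0.0901), SLC30A1 (-0.0914) and SLC30A9 (-0.029). Over the libraries left out MTF1 ran from -0.0459 to 0.11, MTF2 from -0.0535 to 0.11, SLC30A1 from -0.12 to 0.18, SLC30A4 from -0.57 to 7.80, SLC30A6 from -0.33 to 0.10, SLC30A9 from -0.060 to 0.20, SLC39A7 from -0.18 to 0.0295 and SLC39A14 from -0.0769 to 0.25. With counts halved, 4 metallothioneins were tested and 4 rose, MT1F being no longer tested. MT1E was among the 4, and with 0 reads in vehicle a higher value was a condition of its test. Apart from these constructions the cause was not tested.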

Other observations

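The genes on either side of the metallothionein cluster were read as well, to set the rise of the metallothioneins beside its surroundings. Within 500 kb of the cluster lay 12 protein-coding genes by RefSeq biotype, leaving out any symbol of MT followed by a digit. Of these, 11 were tested, with a median log2 fold change of 0.12. Among those tested 3 rose and 1 fell, beside 11.5% higher and 10.5% lower over all genes tested. The nearest of these genes on each side were not called: BBS2, a cilium gene on the left, gave 0.12 ± 0.14, and NUP93, a nuclear pore gene on the right, 0.05 ± 0.13. Among the genes called, HERPUD1, of the endoplasmic reticulum stress response, rose by 2.46 on the log2 scale and NLRC5, an activator of MHC class I genes, by 0.61, while OGFOD1, a ribosomal protein hydroxylase, fell by 0.41 (edgeR adjusted p = 9.81e-08, 0.0278 and 0.0332).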
